A study of Mus musculus with 6 samples.

Results

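The genes described here are 49 mouse enzymes and partners that build N-glycans and mucin-type O-glycans in the Golgi, chosen by name from the 54232 gene rows of a tumor RNA sequencing series. They comprise 16 polypeptide GalNAc-transferases (Galnt genes), 5 genes of O-glycan cores and branches, 8 fucosyltransferases (Fut), 6 GlcNAc-transferases of N-glycan branching (Mgat), 5 beta-galactosyltransferases (B4galt) and 9 sialyltransferases. Each was found in the count files, and 43 of the 49 had enough counts to be tested. Libraries came from 3 CdGAP fx/fx and 3 CdGAP wt/wt tumors, named fx1 to fx3 and wt1 to wt3, and every animal carried the NIC transgene. The NIC transgene places activated ErbB2 (Neu) and Cre recombinase on a single transcript under the MMTV promoter, which is active in mammary epithelium, so the wt/wt tumors carry oncogene and Cre as well. CdGAP, encoded by Arhgap31, is a GTPase-activating protein for Cdc42 and Rac1. In fx/fx animals both copies of Arhgap31 can be recombined by Cre, in the cells that express it only. The series thus asks how tumor transcripts differ when CdGAP can be lost in the tumor epithelium. Strain and age are not given in the sources used here, nor whether each library came from a separate animal, so the p-values reflect only how much these libraries vary, which may be technical.

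Mucin-type O-glycosylation starts when a Galnt enzyme adds GalNAc to serine or threonine. C1galt1, with its chaperone C1galt1c1 (Cosmc), then adds galactose to make the core 1 structure. Core 1 can be capped with sialic acid by St3gal1 or branched by Gcnt1, which makes the core 2 structure, and the enzymes compete for the same acceptor. N-glycans are trimmed and then branched by the Mgat enzymes, extended with galactose by B4galt enzymes, fucosylated on their core by Fut8 and sialylated by enzymes such as St6gal1. In mammary tumors, sialylated core 1 and branched N-glycans are long-studied features of the cell surface.

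Libraries held between 36732137 (fx2) and 53606276 (fx1) counts of read pairs. A count of 0 allows up to 3 counts, or between 0.0565 and 0.0803 CPM (counts per 1000000, scaled by TMM), which covers counting error only. Arhgap31 measured 156, 44.1 and 116 CPM in fx1, fx2 and fx3, and 664, 433 and 549.8 CPM in wt1, wt2 and wt3, with no overlap (exact 2-sided permutation p = 0.1, the smallest that 3 against 3 allow). The 9 luminal epithelial markers all passed the filter on low counts, and their summed level was 4178 to 5690 CPM in fx/fx and 4378 to 5198 CPM in wt/wt. Of these markers 6 were higher in fx/fx and 3 lower, with log2 fold changes of -0.51 to 1.17. Markers of several other cell types also differed. Of 10 fibroblast markers 9 were higher in fx/fx, with summed levels of 840.0 to 1525 CPM against 309 to 532 CPM in wt/wt. All 10 endothelial markers were higher, with sums of 172 to 331 CPM in fx/fx and 150 to 181 CPM in wt/wt, and all 8 adipocyte markers were higher, with sums of 83.4 to 245 CPM in fx/fx and 29.2 to 64.0 CPM in wt/wt. Of 9 basal or myoepithelial markers 8 were higher, with sums of 65.7 to 84.7 CPM in fx/fx and 37.5 to 44.7 CPM in wt/wt, as were all 5 tested of 6 erythroid markers, with sums of 535 to 628 CPM in fx/fx and 119 to 297 CPM in wt/wt. Of 5 tested mast cell markers 4 were higher, with a median log2 fold change of 2.17, while Kit was lower at -0.67. Kit made up nearly all of the mast cell sum, which was 562 to 735 CPM in fx/fx and 621 to 1382 CPM in wt/wt. Of 10 macrophage markers 7 were higher, with overlapping sums of 315 to 728 CPM in fx/fx and 482 to 564 CPM in wt/wt. All 7 tested of 10 lymphoid markers were lower, with sums of 13.0 to 39.3 CPM in fx/fx and 15.2 to 44.3 CPM in wt/wt, and the B cell markers Ms4a1 and Cd79a were at 0.16 CPM or less in every library. Counts from whole tumors cannot tell fewer cells of a type from less RNA per cell, and the part of these cell types in the results below was not tested.

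Most Galnt transcript came from a few genes. Levels of different genes are given in TPM, which divides counts by exonic length. Galnt3, which glycosylates the phosphate hormone FGF23 among other substrates, had the highest mean TPM of all members, at 416, 501 and 408 TPM in fx/fx libraries 1 to 3 and 505, 415 and 524 TPM in wt/wt libraries 1 to 3. It made up 45.6 ± 3.51% of the summed Galnt TPM in fx/fx and 47.1 ± 3.76% in wt/wt (SD, n = 3 each). Galnt10 followed with 22.1 ± 1.73% in fx/fx and 20.97 ± 2.80% in wt/wt. Below Galnt10 the order differed between genotypes. Galnt1 held 8.14 ± 0.267% in fx/fx and 7.22 ± 0.433% in wt/wt, Galnt18 held 8.13 ± 4.87% in fx/fx and 3.77 ± 0.489% in wt/wt, and Galnt12 held 2.47 ± 1.08% in fx/fx and 7.76 ± 5.06% in wt/wt. The differences in mean between Galnt1 and Galnt18 in fx/fx, and between Galnt12 and Galnt1 in wt/wt, were smaller than the spread of the libraries. Summed over the 16 genes, the Galnt level was 968 ± 79.3 TPM in fx/fx and 1019 ± 65.5 TPM in wt/wt, a difference within the spread of the libraries.

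**Figure D1:**
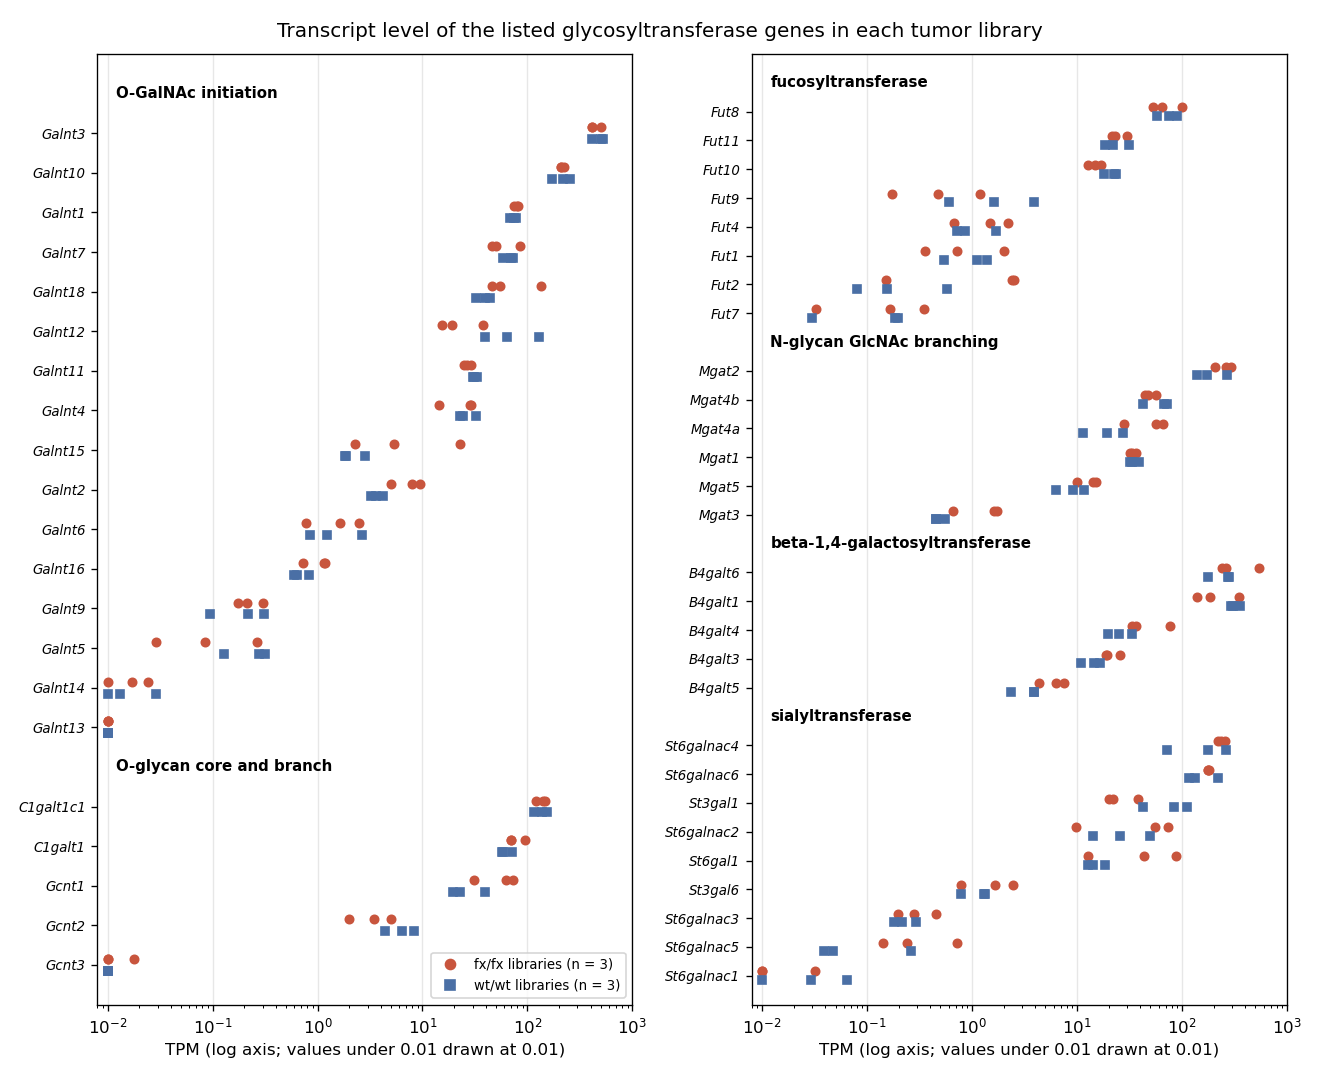
TPM (log axis) of all 49 genes in each library, grouped by enzyme class and sorted by mean level, with fx/fx libraries as circles above wt/wt libraries as squares. Galnt3 has the highest mean, at 408 to 524 TPM, B4galt6 reaches 537 TPM in fx1, and Galnt13 has no count in any library.

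The other classes were also led by a small number of genes. B4galt6 (537, 242 and 263 TPM in fx1 to fx3; 281, 178 and 273 TPM in wt1 to wt3) and B4galt1 (186, 349 and 139 TPM in fx/fx; 291, 303 and 355 TPM in wt/wt) led the galactosyltransferases, with B4galt6 the higher in fx1 and fx3 and B4galt1 the higher in the other 4 libraries. B4galt1 acts on glycoproteins, while B4galt6 is known as a lactosylceramide synthase. Among N-glycan branching genes Mgat2 was highest, at 261, 204 and 293 TPM in fx/fx and 175, 138 and 268 TPM in wt/wt. St6galnac4, which adds sialic acid to already sialylated core 1, had the highest mean of the sialyltransferases, with 259.8, 236 and 218 TPM in fx/fx and 179, 71.6 and 266 TPM in wt/wt. St6galnac6 followed with 179, 183 and 177 TPM in fx/fx and 219, 117 and 133 TPM in wt/wt, and was the higher of the pair in wt1 and wt2. Fut8, the core fucosyltransferase, made up 61.2 ± 4.99% of Fut TPM in fx/fx and 59.6 ± 7.36% in wt/wt. Its level was 100.3, 53.1 and 64.3 TPM in fx1 to fx3 and 75.3, 58.3 and 89.9 TPM in wt1 to wt3. In the core class the chaperone C1galt1c1 was highest, at 148, 121 and 139 TPM in fx/fx and 116, 139 and 155 TPM in wt/wt. For each of these leading genes named with values per library, Galnt3 included, the genotypes overlapped.

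At the other end, 4 genes had a mean under 0.1 TPM. Galnt13, a neuronal family member, had 0 counts in all 6 libraries. Galnt14 had 2, 1 and 0 counts in fx1 to fx3 and 0, 2 and 1 in wt1 to wt3. Gcnt3, the mucosal core 2 and core 4 branching enzyme, had 1 count, in fx3. St6galnac1, which makes sialyl-Tn, had 1 count, in fx3, among fx/fx libraries and 0, 2 and 1 counts in wt1 to wt3. These 4 genes, with Galnt9 (4 to 12 counts) and Fut7 (1 to 9 counts), a leukocyte enzyme of selectin ligand synthesis, were not tested. In these tumors 12 of the 49 genes had a mean of 1 TPM or less and 8 had over 100 TPM.

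Between genotypes, 26 of the 43 tested genes (60.5%) had a higher fitted level in fx/fx and 17 a lower one, where 49.6% of all genes were higher. The edgeR quasi-likelihood test, adjusted by Benjamini-Hochberg over all 16752 genes tested, called 0 of the 43 members, as it called 0.00% of all genes. Arhgap31 itself was not called by this test, with a log2 fold change of -2.38 and an edgeR adjusted p of 0.153. limma-voom also called 0 members, as it called 0.00% of all genes, with 10 of the 43 (23.3%) at an unadjusted p under 0.05, against 14.3% of all genes. At an unadjusted edgeR p under 0.05 there were 14 of 43 members (32.6%), against 14.2% of all genes. Of these, 11 were higher in fx/fx, where 8.18% of all genes were, and 3 were lower, where 6.04% were. The members were chosen with earlier results of these data known, so a share above that of all genes is no independent result. DESeq2 called 3 of the 44 members it adjusted (6.82%), against 4.61% of all genes, namely St3gal1 and Galnt12 as lower, where it called 1.72% of all genes, and Galnt15 as higher, where it called 2.89%. Genotypes did not overlap for 9 of the 43 (20.9%), close to the 19.7% of all genes, with fx/fx above for 5 (9.74% of all genes) and below for 4 (9.93%). The median log2 fold change (fx/fx over wt/wt) of the 43 was 0.30, against -0.004 over all genes tested. It was 0.15 without fx2 and 0.15 without wt2. Over the 43 genes wt2 was the lowest library for 18 (41.9%), against 20.8% of all genes.

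**Figure D2:**
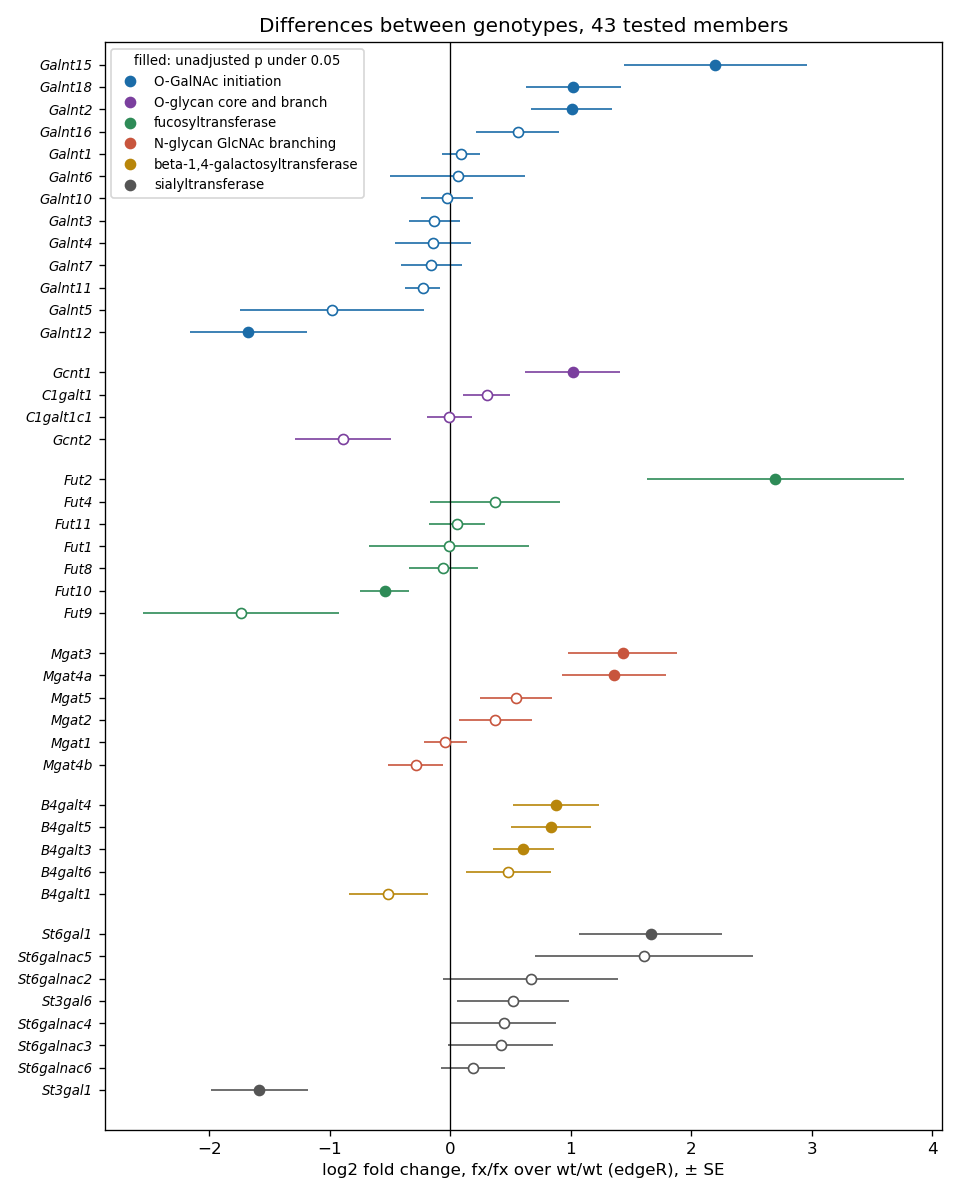
Log2 fold change (fx/fx over wt/wt) of the 43 tested genes with its SE, by enzyme class, with filled points for an unadjusted edgeR p under 0.05. The values run from -1.74 (Fut9) to 2.70 (Fut2), and 26 of the 43 lie above 0.

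Among the sialyltransferases, St3gal1 (chr15:67102875-67176830, minus strand), which caps core 1 with sialic acid, was lower in every fx/fx library. It measured 76.4, 41.2 and 47.5 CPM in fx1, fx2 and fx3, against 233, 84.0 and 177 CPM in wt1, wt2 and wt3. The highest fx/fx library lay just under the lowest wt/wt library, wt2. The means were 55.0 ± 18.8 CPM in fx/fx and 165 ± 75.4 CPM in wt/wt (SD, n = 3 each), 3.00-fold lower. The log2 fold change was -1.58 (SE 0.40), and the adjusted p in edgeR was 0.193, the smallest of the 43 members. DESeq2 called it with an adjusted p of 0.0132, and this call was lost without fx3, wt1 or wt3. With any library left out, its log2 fold change stayed between -1.91 and -1.25. St3gal1 made up 4.86 ± 0.981% of sialyltransferase TPM in fx/fx and 16.9 ± 3.35% in wt/wt.

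St6gal1 (chr16:23224740-23360350, plus strand), which adds sialic acid to the galactose of N-glycans, went the other way in part of the fx/fx tumors. It measured 125, 18.5 and 68.4 CPM in fx1, fx2 and fx3, against 19.1, 26.0 and 21.7 CPM in wt1, wt2 and wt3. fx1 and fx3 stood above every wt/wt library, and fx2 lay below all of them. The log2 fold change of 1.66 (SE 0.60) did not pass (edgeR adjusted p = 0.287, DESeq2 adjusted p = 0.0661), and without fx1 it was 0.94. St6galnac2, a core 1 sialyltransferase, had a like pattern in fx/fx, with 124, 16.7 and 102 CPM in fx1 to fx3, but varied in wt/wt too, with 25.2, 82.1 and 45.8 CPM in wt1 to wt3. A shorter gene row of the same name lies inside St6galnac2 on the same strand, and pairs that overlap both rows are not assigned, so its level is less certain. The remaining 5 tested sialyltransferases (St3gal6 and St6galnac3 to St6galnac6) overlapped between genotypes, with log2 fold changes of 0.19 to 1.61. St6galnac4 and St6galnac6 are annotated 10 bases apart on the same strand of chromosome 2, so pairs near that boundary may belong to either.

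Gcnt1 (chr19:17326141-17356667, minus strand), the core 2 branching enzyme that shares its acceptor with St3gal1, was higher in fx1 and fx3. It measured 117, 50.9 and 111 CPM in fx1, fx2 and fx3, against 39.3, 31.3 and 67.4 CPM in wt1, wt2 and wt3. fx2 lay inside the wt/wt range. The log2 fold change of 1.02 (SE 0.39) did not pass (edgeR adjusted p = 0.311, DESeq2 adjusted p = 0.198). C1galt1, which makes the shared acceptor, measured 122, 170 and 134 CPM in fx/fx and 108, 103 and 135 CPM in wt/wt (log2 fold change 0.30, edgeR adjusted p = 0.539). Its chaperone C1galt1c1 measured 62.2, 51.9 and 64.1 CPM in fx/fx and 51.8, 57.9 and 69.4 CPM in wt/wt. The ratio of St3gal1 to Gcnt1 TPM was 0.532, 0.659 and 0.347 in fx1 to fx3, and 4.83, 2.19 and 2.14 in wt1 to wt3. St3gal1 was thus the lower of the pair in each fx/fx tumor and the higher in each wt/wt tumor. The ratio covers this pair only and leaves out other members of both families. St3gal2, outside the list of members, measured 29.3, 7.58 and 12.1 TPM in fx/fx and 4.67, 9.76 and 7.62 TPM in wt/wt. Its log2 fold change was 1.14 (edgeR adjusted p = 0.356). Gcnt4, also outside the list, measured 1.25, 1.96 and 0.390 TPM in fx/fx and 0.326, 0.809 and 0.360 TPM in wt/wt. St3gal1 and Gcnt1 were paired from textbook roles with earlier results of these data known, and the ratio is given without a test. Gcnt2, the I-branching enzyme, measured 7.06, 10.5 and 4.44 CPM in fx/fx and 17.8, 8.85 and 14.02 CPM in wt/wt (edgeR adjusted p = 0.369).

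**Figure D3:**
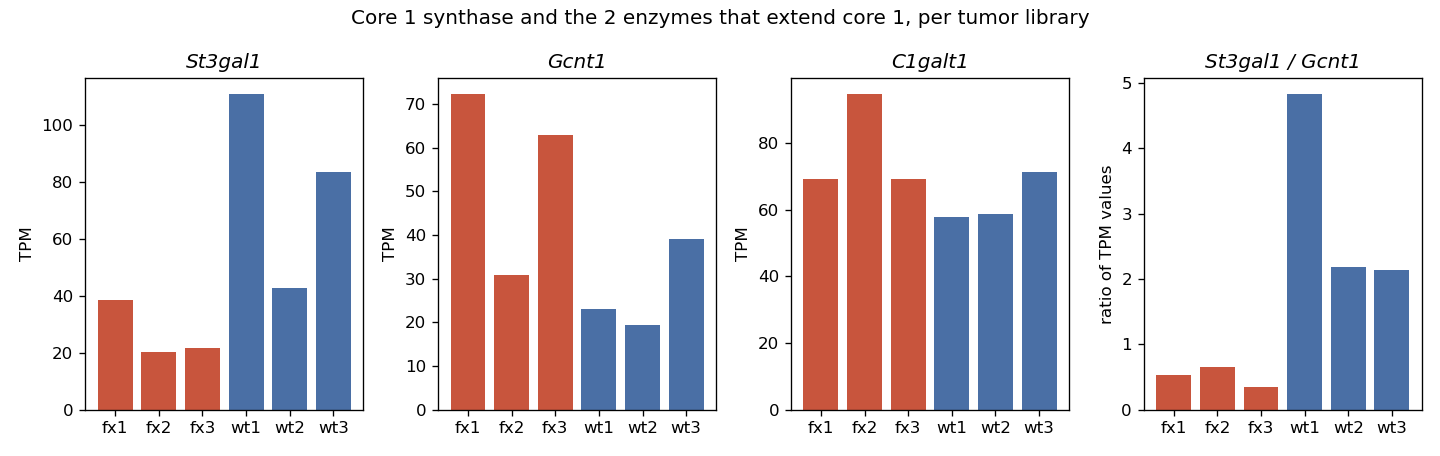
TPM of St3gal1, Gcnt1 and C1galt1 and the ratio of St3gal1 to Gcnt1 in each library, fx/fx left of wt/wt. The ratio is 0.347 to 0.659 in fx/fx and 2.14 to 4.83 in wt/wt.

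Of the 13 Galnt genes tested, 6 were higher and 7 lower in fx/fx, with a median log2 fold change of -0.02. Galnt12 (chr4:47091909-47123070, plus strand), which prefers peptides that already carry GalNAc, was lower in every fx/fx library. It measured 10.3, 25.4 and 13.9 CPM in fx1, fx2 and fx3, against 27.6, 85.6 and 45.3 CPM in wt1, wt2 and wt3, with fx2 just below wt1. The means were 16.6 ± 7.91 CPM in fx/fx and 52.8 ± 29.8 CPM in wt/wt (SD, n = 3 each), 3.19-fold lower (log2 fold change -1.68 with an SE of 0.48; adjusted p = 0.220 by edgeR and 0.0224 by DESeq2). The DESeq2 call was lost without fx1, fx3, wt2 or wt3. Without wt2 the log2 fold change was -1.14. Galnt12 lies on chromosome 4, where neighbouring genes were also lower in fx1 and fx3, as given below.

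Galnt15 (chr14:32028989-32062197, plus strand) carried the only higher DESeq2 call, and fx1 decided its size. It measured 41.7, 10.04 and 4.56 CPM in fx1, fx2 and fx3, against 3.52, 5.12 and 3.62 CPM in wt1, wt2 and wt3. fx3 lay inside the wt/wt range. The log2 fold change was 2.20 with an SE of 0.76 (adjusted p = 0.270 by edgeR and 0.0305 by DESeq2), and without fx1 it was 0.83. The DESeq2 call was lost without fx1 or any of the wt/wt libraries. Galnt18 was likewise highest in fx1, at 102, 34.9 and 45.1 CPM in fx1 to fx3, against 25.4, 29.2 and 34.9 CPM in wt1 to wt3 (log2 fold change 1.02, edgeR adjusted p = 0.310, 0.41 without fx1). Galnt2, a broadly acting initiator, was low in level but did not overlap, with 11.7, 6.29 and 10.9 CPM in fx/fx and 4.76, 3.98 and 5.63 CPM in wt/wt (log2 fold change 1.01, SE 0.33, edgeR adjusted p = 0.257). Galnt11 differed little but also did not overlap, with 57.2, 54.2 and 54.2 CPM in fx/fx and 63.2, 65.2 and 65.7 CPM in wt/wt (edgeR adjusted p = 0.529). The abundant Galnt3, Galnt10, Galnt1 and Galnt7 had log2 fold changes of -0.16 to 0.09 with SEs of 0.16 to 0.25.

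**Figure D4:**
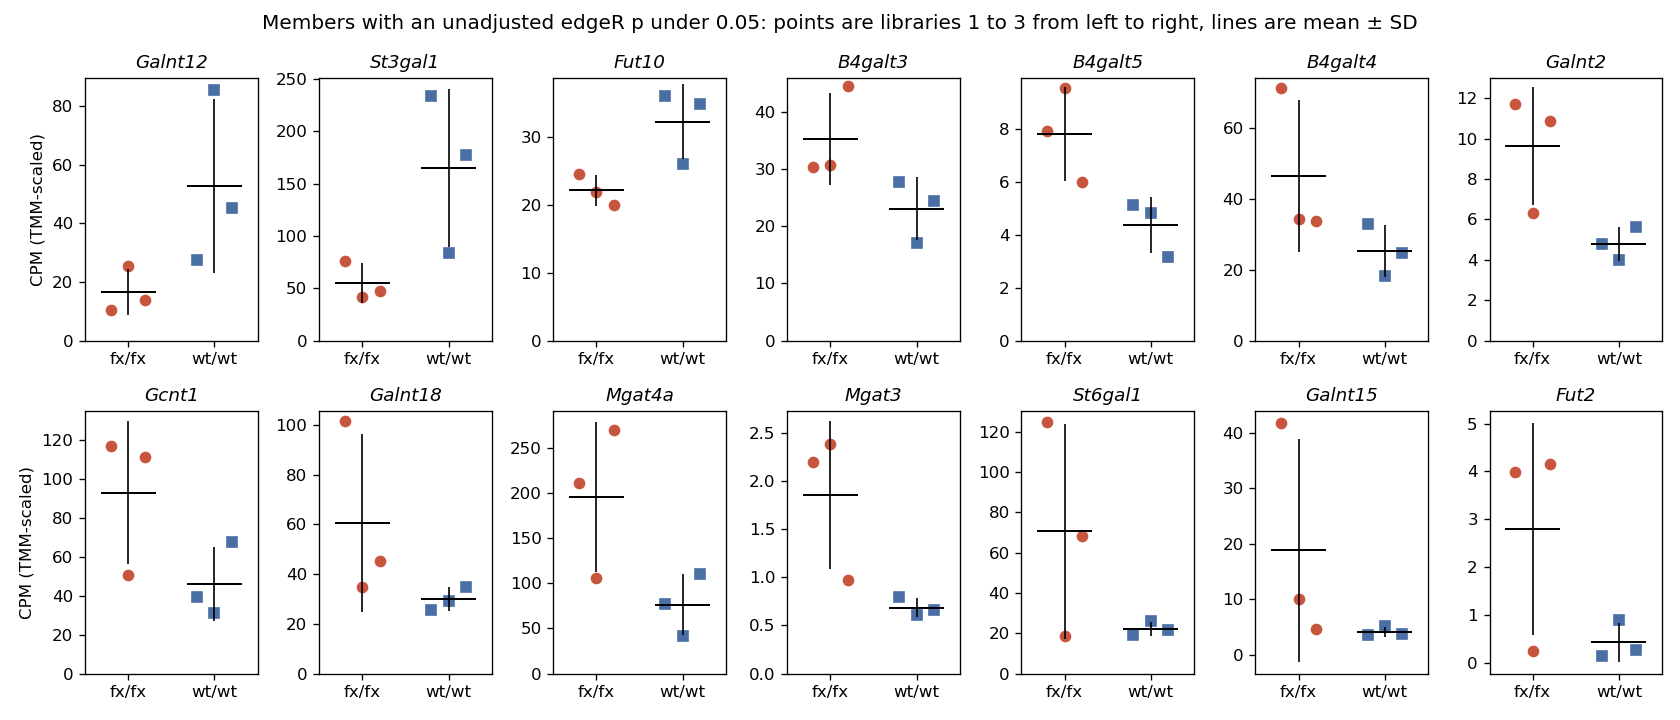
CPM of the 14 members with an unadjusted edgeR p under 0.05, 1 panel a gene in order of fold change, fx/fx left of wt/wt, libraries 1 to 3 from left to right, with mean and SD. St3gal1, Galnt12 and Fut10 are lower in all 3 fx/fx libraries, and for Fut2, St6gal1, Gcnt1, Mgat4a and Galnt18 fx2 lies inside or below the wt/wt range.

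The N-glycan branching genes were led in change by Mgat4a and Mgat3. Mgat4a (chr1:37439340-37541016, minus strand), which adds a branch on the alpha-1,3 arm of the mannose core, measured 211, 106 and 269.7 CPM in fx1, fx2 and fx3, against 76.5, 42.1 and 110.1 CPM in wt1, wt2 and wt3. fx2 lay just under wt3, and the other fx/fx libraries stood above all wt/wt libraries. The log2 fold change was 1.36 with an SE of 0.43 (adjusted p = 0.244 by edgeR and 0.0653 by DESeq2). Mgat4b, the other enzyme of that step, measured 44.8, 38.1 and 38.3 CPM in fx/fx and 35.1, 56.4 and 56.3 CPM in wt/wt (log2 fold change -0.29). Mgat4a made up 12.2 ± 3.22% of Mgat TPM in fx/fx and 5.98 ± 1.3995% in wt/wt (SD, n = 3 each).

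Mgat3 (chr15:80173721-80215519, plus strand), which adds the bisecting GlcNAc, was low in level and did not overlap. It measured 2.20, 2.38 and 0.970 CPM in fx/fx and 0.798, 0.603 and 0.655 CPM in wt/wt (log2 fold change 1.43 with an SE of 0.45; adjusted p = 0.241 by edgeR and 0.0606 by DESeq2). Mgat5, whose branch is linked to tumor invasion in mouse mammary models, measured 42.4, 30.6 and 49.9 CPM in fx/fx and 36.6, 18.5 and 29.1 CPM in wt/wt, with overlap (log2 fold change 0.55, SE 0.30; edgeR adjusted p = 0.455). Mgat1, which opens the pathway to complex N-glycans, had 44.3, 51.0 and 49.7 CPM in fx/fx and 48.5, 43.3 and 57.5 CPM in wt/wt.

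Of the 5 galactosyltransferases, B4galt3, B4galt4 and B4galt5 were each higher in all fx/fx libraries than in any wt/wt library. Of all genes tested, 9.74% stood above wt/wt in this way. B4galt3 measured 30.4, 30.8 and 44.5 CPM in fx1, fx2 and fx3, against 27.8, 17.1 and 24.4 CPM in wt1, wt2 and wt3 (log2 fold change 0.61, SE 0.26). B4galt4 measured 71.5, 34.5 and 33.8 CPM in fx/fx and 32.8, 18.3 and 24.8 CPM in wt/wt (0.88, SE 0.36). B4galt4 (chr16:38742264-38769049) lies close to Arhgap31 (chr16:38598340-38713274), the gene altered in fx/fx. Protein-coding genes within 10 Mb of B4galt4 had a median log2 fold change of 0.11. The part of this position in its values was not tested. B4galt5, a lactosylceramide synthase like B4galt6, measured 7.91, 9.53 and 5.99 CPM in fx/fx and 5.12, 4.80 and 3.17 CPM in wt/wt (0.84, SE 0.33). For all 3 the gap between the nearest libraries was small, and none passed (edgeR adjusted p 0.319 to 0.340, DESeq2 adjusted p 0.156 to 0.350). Without fx1 the log2 fold change of B4galt4 was 0.42. B4galt6 had 904, 415 and 485 CPM in fx/fx and 502, 298 and 491 CPM in wt/wt (log2 fold change 0.48, edgeR adjusted p = 0.586). B4galt1, the main enzyme for glycoproteins, had 228, 435 and 187 CPM in fx/fx and 378, 369.6 and 466 CPM in wt/wt (log2 fold change -0.51, edgeR adjusted p = 0.526).

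B4galt3, B4galt4 and B4galt5 were each higher in fx/fx, but had their highest values in fx3, fx1 and fx2, in that order. The 250 bases before their RefSeq starts (GRCm38.p6, 5′ to 3′ on the gene's strand) are shown, with each GC box (GGGCGG, or CCGCCC on the other strand) in capitals. They are B4galt3 at chr1:171270078-171270327 on the plus strand, B4galt4 at chr16:38742009-38742258 on the plus strand and B4galt5 at chr2:167349179-167349428 on the minus strand.
B4galt3: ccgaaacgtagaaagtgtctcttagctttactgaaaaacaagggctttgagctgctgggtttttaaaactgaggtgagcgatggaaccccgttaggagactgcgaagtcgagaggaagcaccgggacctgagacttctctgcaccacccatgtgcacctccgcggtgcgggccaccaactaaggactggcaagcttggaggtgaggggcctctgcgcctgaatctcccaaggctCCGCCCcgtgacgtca
B4galt4: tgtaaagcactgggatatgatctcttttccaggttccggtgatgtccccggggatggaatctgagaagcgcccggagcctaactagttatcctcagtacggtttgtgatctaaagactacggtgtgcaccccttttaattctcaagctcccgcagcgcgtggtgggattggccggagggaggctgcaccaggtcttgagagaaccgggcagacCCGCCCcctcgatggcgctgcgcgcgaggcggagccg
B4galt5: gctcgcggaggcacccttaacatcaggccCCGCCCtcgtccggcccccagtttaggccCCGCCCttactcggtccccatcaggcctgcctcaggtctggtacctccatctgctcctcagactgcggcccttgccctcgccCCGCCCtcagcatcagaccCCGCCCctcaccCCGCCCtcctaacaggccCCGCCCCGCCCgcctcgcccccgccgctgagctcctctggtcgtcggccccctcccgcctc
B4galt5 held 7 matches, some overlapping, in a window of 73.2% G and C, while B4galt3 and B4galt4 held 1 match each at 56.8% and 59.2%. Of 32851 RefSeq promoter windows of this length 32.7% held a match, as did 47.1% of the 51 windows found for 32 of the 49 genes. A match describes the letters only and is not a binding site.

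The fucosyltransferases showed differences in genes of low or middle level. Fut2 (chr7:45648591-45666394, minus strand), which makes the H antigen on secretory epithelia, had 3.99, 0.241 and 4.15 CPM in fx1, fx2 and fx3, against 0.133, 0.894 and 0.262 CPM in wt1, wt2 and wt3. fx1 and fx3 stood above every wt/wt library, while fx2 lay inside their range (log2 fold change 2.70 with an SE of 1.07; adjusted p = 0.319 by edgeR and 0.0613 by DESeq2). Fut1, its neighbour 27531 bases away on chromosome 7, had 0.584, 1.66 and 0.315 CPM in fx/fx and 0.465, 0.894 and 1.201 CPM in wt/wt (log2 fold change -0.01). In fx/fx, Fut1 was highest in fx2, where Fut2 was lowest. Fut10 was lower without overlap, with 24.5, 21.9 and 20.0 CPM in fx/fx and 36.0, 26.0 and 34.9 CPM in wt/wt (log2 fold change -0.54, SE 0.20; edgeR adjusted p = 0.300). Fut9, an enzyme of the Lewis X structure, had 1.88, 4.85 and 0.752 CPM in fx/fx and 2.57, 15.4 and 6.97 CPM in wt/wt, with overlap (log2 fold change -1.74, SE 0.82; edgeR adjusted p = 0.391). Fut4, Fut8 and Fut11 had log2 fold changes of -0.06 to 0.37.

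A recurring pattern was that fx2 differed from the other fx/fx tumors, and this was not limited to these enzymes. Over all genes tested, log2 CPM of fx2 correlated at 0.954 with fx1 and 0.952 with fx3, where fx1 correlated at 0.963 with fx3. The correlations of fx2 with wt1, wt2 and wt3 were 0.965, 0.946 and 0.959. For 7 of the 43 genes (16.3%, against 8.90% of all genes tested) fx1 and fx3 stood above every wt/wt library and fx2 did not. These were Galnt18, Gcnt1, Fut2, Mgat4a, Mgat5, St6gal1 and St6galnac2. For 5 genes (11.6%, against 7.44%) fx1 and fx3 lay below every wt/wt library and fx2 did not, namely Galnt5, Galnt7, Gcnt2, Fut9 and B4galt1. With fx3 as the library that did not exceed wt/wt there were 3 members (6.98%, against 5.57%), Galnt15, Galnt16 and St3gal6, and with fx1 as that library 0 members (3.30% of all genes). fx2 was also the library with the lowest Arhgap31, at 44.1 CPM, and with the fewest counts. Among all libraries it had the highest summed fibroblast (1525 CPM), adipocyte (245 CPM), macrophage (728 CPM) and basal or myoepithelial (84.7 CPM) markers. The endothelial and erythroid sums were highest in fx1, the luminal sum in fx3, the mast cell sum in wt3 and the lymphoid sum in wt1. The part of these differences in the pattern was not tested. With fx2 left out, DESeq2 called 12 of the 43 tested members: Galnt2, Galnt15, Galnt18, Gcnt1, Fut2, Mgat4a and St6gal1 as higher, and St3gal1, Galnt12, Gcnt2, Fut9 and B4galt1 as lower. In that fit it called 1622 genes in all (8.86% of those it adjusted), against 831 with every library, and edgeR called 0 members. Galnt18, Gcnt1, Fut2, Mgat4a, St6gal1, Gcnt2, Fut9 and B4galt1 were listed above because fx2 stood apart. Leaving fx2 out favours their calls by that choice, so these calls are no separate support for the pattern.

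Positions here and above are in the GRCm38 build of the count files. Some members lie in chromosome segments whose genes differed together. The surroundings of a gene are given as the median log2 CPM, relative to the wt/wt mean, of protein-coding genes within 10 Mb. Around Galnt12 this median over 93 genes was -0.71, -0.05 and -0.85 for the fx/fx libraries 1 to 3, against -0.07 to 0.04 in wt/wt. Values around Fut9 (-0.69, 0.01 and -0.84) and B4galt1 (-0.72, -0.03 and -0.85), also on chromosome 4, followed the same order. The log2 fold change of B4galt1, -0.51, was as large as the median of its surroundings, -0.52, while those of Galnt12 (-1.68, against -0.52) and Fut9 (-1.74, against -0.48) were larger. On chromosome 1 the surroundings of B4galt3 stood at 0.45, 0.32 and 1.00 in fx1 to fx3 and at 0.35, -0.55 and 0.21 in wt1 to wt3, with a median fold change of 0.55 against 0.61 for B4galt3. Those of Mgat5 stood at 0.34 against 0.55 for the gene.

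Galnt3, Galnt5, St6galnac4, St6galnac6 and B4galt5 lie on chromosome 2, where the surroundings were highest in fx2, at 0.39 to 0.54. For B4galt5 they were 0.07, 0.39 and 0.09 in fx1 to fx3, and its own level was also highest in fx2. Around Galnt10, Mgat1 and Mgat4b on chromosome 11 they were lowest in fx1, at -0.67 to -0.65, and around Galnt10 also low in fx3, at -0.43. Around Galnt4 on chromosome 10 they were -0.59, -0.01 and 0.13 in fx1 to fx3. Galnt4 itself measured 21.2, 43.3 and 45.6 CPM in fx/fx and 37.6, 33.3 and 50.6 CPM in wt/wt. Its log2 fold change was -0.14, against a median of -0.13 in its surroundings. By contrast, the surroundings of St3gal1 on chromosome 15 stood between -0.10 and 0.08 in fx/fx and between -0.09 and 0.13 in wt/wt. Those of Galnt2, Galnt15, Galnt18, Gcnt1, Fut2, Mgat3, Mgat4a and St6gal1 had median fold changes of -0.13 to 0.09. The part of these surroundings in the members' values was not tested.

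**Figure D5:**
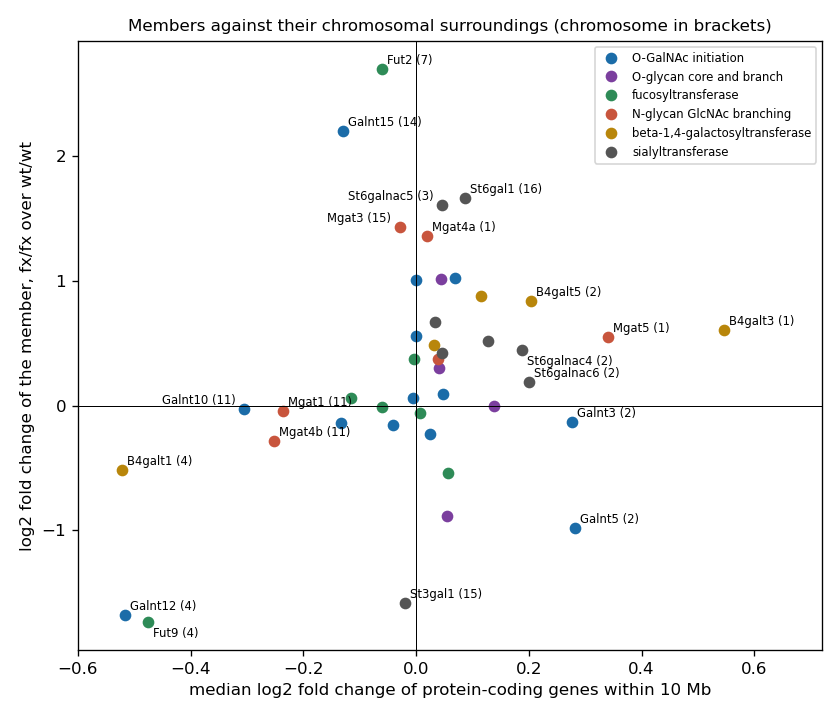
Log2 fold change of each tested member (vertical axis) against the median log2 fold change of protein-coding genes within 10 Mb (horizontal axis), both fx/fx over wt/wt, with the chromosome in brackets. B4galt1, Galnt12 and Fut9 sit at -0.48 to -0.52 on the horizontal axis and B4galt3 at 0.55, while St3gal1 sits at -0.02.

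Genes that supply, hold or precede these enzymes were counted in lists of textbook members, to be read against the 14.2% of all genes at an unadjusted edgeR p under 0.05 (8.18% higher and 6.04% lower) and the 4.61% called by DESeq2. Of 8 COG complex genes, which hold the enzymes in the Golgi, 0 had an unadjusted edgeR p under 0.05 (smallest for Cog1, log2 fold change 0.38, edgeR adjusted p = 0.630), and DESeq2 called 0. Of 10 nucleotide sugar transporters 1 had such a p, Slc35a1, which imports CMP-sialic acid, with 81.1, 147 and 85.1 CPM in fx/fx and 172, 141 and 259 CPM in wt/wt (log2 fold change -0.86, edgeR adjusted p = 0.293). It lies on chromosome 4. Of 22 tested nucleotide sugar synthesis genes 11 were higher and 11 lower, and an unadjusted edgeR p under 0.05 was reached by 2 higher and 3 lower ones. Uap1, which makes UDP-GlcNAc, was called by DESeq2, with 71.3, 62.3 and 102 CPM in fx/fx and 48.6, 31.0 and 39.9 CPM in wt/wt (DESeq2 adjusted p = 0.0487, edgeR adjusted p = 0.202). Its surroundings on chromosome 1 stood at 0.44, 0.33 and 1.01 in fx1 to fx3 and at 0.35, -0.54 and 0.21 in wt1 to wt3.

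Among 12 trimming enzymes of N-glycans, Man1a, a Golgi mannosidase, was called higher by DESeq2, with 93.5, 29.4 and 73.2 CPM in fx/fx and 14.96, 26.2 and 23.9 CPM in wt/wt (DESeq2 adjusted p = 0.0169, edgeR adjusted p = 0.210). The surroundings of Man1a on chromosome 10 stood at -0.59, -0.01 and 0.03 in fx1 to fx3. At an unadjusted edgeR p under 0.05 the list had 1 higher gene, Man1a, and 1 lower, Man2a2, another Golgi mannosidase, with 29.5, 47.7 and 22.2 CPM in fx/fx and 64.9, 61.6 and 76.9 CPM in wt/wt (log2 fold change -1.03; adjusted p = 0.217 by edgeR and 0.0628 by DESeq2). Of 11 oligosaccharyltransferase genes 2 had an unadjusted edgeR p under 0.05, with the smallest p for Ddost, also on chromosome 4, at 246, 181 and 227 CPM in fx/fx and 326, 389.8 and 355 CPM in wt/wt (edgeR adjusted p = 0.210, DESeq2 adjusted p = 0.0501). Of 13 tested mucin-type carriers 4 had an unadjusted edgeR p under 0.05, all higher, and DESeq2 called Pdpn (podoplanin), at 2.07, 2.95 and 1.92 CPM in fx/fx and 0.665, 1.296 and 0.895 CPM in wt/wt (DESeq2 adjusted p = 0.0466, edgeR adjusted p = 0.243). Of 8 tested galectins and selectins 1 had such a p, Selp (log2 fold change 1.23, edgeR adjusted p = 0.289). In the same families but outside the 49, St3gal4, which adds sialic acid to lactosamine ends, had the largest fold change of 10 tested genes. It measured 57.4, 10.5 and 51.7 CPM in fx1, fx2 and fx3, against 3.97, 4.49 and 4.65 CPM in wt1, wt2 and wt3 (log2 fold change 3.19 with an SE of 0.59; adjusted p = 2.97e-06 by DESeq2 and 0.153 by edgeR). Every fx/fx library stood above every wt/wt library, and fx2 was again the lowest of the fx/fx libraries.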

How the data were processed

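RNA from 6 tumors was sequenced as read pairs, 3 libraries per genotype. The authors' deposited files hold whole-number counts of fragments per gene, made with featureCounts 1.6.0 on the Ensembl 93 annotation of GRCm38 with strand used and chimeric or singly mapped pairs left out, per the file headers. The submitters' processing notes also name FastQC 0.11.5, STAR 2.5.1b, featureCounts 1.4.6 and DESeq2 1.12.3. Gene symbols came from GENCODE M21 and matched 54165 of 54232 rows, and 0 rows named no gene.

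Counts were filtered (filterByExpr), scaled by TMM and tested with the edgeR 4.0.16 quasi-likelihood test, 2-sided, with Benjamini-Hochberg adjustment over all genes and a threshold of 0.05, in R 4.3.3. Each SE given is the absolute edgeR log2 fold change divided by the square root of its quasi-likelihood F statistic. DESeq2 1.42.0 and limma-voom (limma 3.58.1) were alternatives, with DESeq2 size factors, no filter, a replicate block and each library left out. The procedure was first tested on simulated data. TPM was computed from the counts and the exonic length in each file. Promoters came from RefSeq. St6galnac2 has a pair of rows, and the longer was used. Genes named were those called by edgeR or DESeq2, those at an unadjusted edgeR p under 0.05, the highest of each class and those under 0.1 TPM, with in each other list those called by DESeq2 or the gene with the smallest p. Mgat1, Mgat4b, Mgat5, C1galt1, Gcnt2, B4galt1, Fut1, Fut9, Galnt1, Galnt4, Galnt10, Galnt11, St6galnac2, St6galnac6, St3gal2, Gcnt4, Man2a2 and Kit were given values beside these for their roles or values, in part chosen after their values were seen. The members and lists were chosen with earlier results of these data known.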

Additional observations from a re-analysis of the deposited data

How the results depend on the processing

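No edgeR or limma-voom fit called a member, and over all genes edgeR called 38 without the filter on low counts, 2 without fx2 and 0 in the others. DESeq2 called 831 genes and 3 members, and Arhgap31 at -2.40. With each library left out in turn, edgeR gave 0 to 2 genes, 6 to 18 members at an unadjusted p under 0.05 (with 9.81% of all genes without fx1, where 6 were, and 17.7% without fx2, where 18 were) and a median log2 fold change of the members of 0.15 to 0.40. DESeq2, an alternative chosen after seeing the data, gave 508, 1622 and 856 genes without fx1, fx2 and fx3 and 412, 573 and 544 without wt1, wt2 and wt3, with 1 to 12 members called, 9 to 17 members at an unadjusted p (7.29% to 12.2% of all genes), a median of 0.14 to 0.39 and Arhgap31 at -2.80, -2.03, -2.45, -2.22, -2.55 and -2.39 in the same order. The lowest edgeR member count, 6, came without fx1, and the highest DESeq2 counts came without fx2; the cause was not tested. St3gal1, Galnt12 and Mgat3 kept an unadjusted edgeR p under 0.05 with any library left out. Of the 43 tested members 31 had the same direction in all 18 fits, and 12, all with small fold changes, did not. Same-numbered libraries did not deviate together (correlations of -0.08, -0.09 and 0.06). No pairing by number was seen, but 3 libraries per genotype are too few to exclude it. With the replicate block, edgeR called 0 genes, 11 members had an unadjusted p under 0.05, as had 12.4% of all genes, the median was 0.30 and Arhgap31 stood at -2.54. With 3 libraries per genotype, genes at a few counts could not be compared.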
